A study of Mus musculus with 4 samples.

Results

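Transcripts of 7 genes that mark the choroid plexus were examined in brain septal tissue of mice: Ttr, Enpp2, Sostdc1, Folr1, Slc13a4, Aqp1 and Msx1. They are 7 of the 15409 genes listed in the data, and all 7 were among the 13912 genes tested, those with a mean CPM of at least 1 (CPM scales reads to the same total in each library). They were selected on their CPM in these libraries, as choroid plexus markers with higher values in TCRb-/- than in WT mice in both experiments of the study, so the genotype values below describe the selection and carry no test. Every gene tested was also compared between the experiments, a difference the selection did not use. The spread in that test includes the genotype difference, so for the 7 genes the test is not independent of the selection.

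The study sequenced RNA of septal tissue from mice whose T cell receptor beta chain is missing (TCRb-/-, 2 libraries) and from wild-type mice (WT, 2 libraries). All animals, WT included, were restrained for 30 min in a DecapiCone, a flexible plastic cone, on each of 3 days and died 1.5 h after the final restraint, so an unstressed group was not analysed here. Each library is a pool of 4 to 5 mice, and replicate 1 of each genotype belongs to experiment 1 and replicate 2 to experiment 2. Strain, age and sex are not given in the labels used here. P-values therefore measure a spread between pools and not between mice. No 2 libraries share both genotype and experiment, so none measures the spread between like pools. In the fit by experiment alone the spread includes the genotype difference, and in the fit by genotype alone the experiment difference. With both terms it is the change of the genotype difference between experiments. An exact permutation test of 2 libraries against 2 cannot give a p below 0.333.

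The choroid plexus is a fold of vascularised tissue in the brain ventricles, and the septum borders the lateral ventricles in which part of it lies. Its epithelium makes cerebrospinal fluid by moving ions and water, takes up nutrients such as folate from the blood, and secretes proteins into the fluid, of which transthyretin is the best known. In bulk tissue, fewer cells of a type and less RNA per cell cannot be told apart. Several of these genes are not exclusive to that epithelium: oligodendrocytes also make Enpp2, and meningeal cells are a known site of Slc13a4.

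Promoter sequence was available here for 3 of the 7 genes in the RefSeq table of GRCm38.p6: Msx1, Slc13a4 and Aqp1. They are shown because the 7 genes move together across the libraries. Each stretch runs 5′ to 3′ on the gene's strand, from 250 to 11 bases before the start annotated in that table. Capitals mark CCAAT or its reverse ATTGG. Gene positions further on are those of GENCODE M21, where Aqp1 starts further downstream, at 55336432. The Aqp1 stretch does not reach the bases just before that start. The Msx1 stretch is chr5:37824596-37824835 (minus strand), that of Slc13a4 is chr6:35308137-35308376 (minus strand) and that of Aqp1 is chr6:55336049-55336288 (plus strand).
Msx1: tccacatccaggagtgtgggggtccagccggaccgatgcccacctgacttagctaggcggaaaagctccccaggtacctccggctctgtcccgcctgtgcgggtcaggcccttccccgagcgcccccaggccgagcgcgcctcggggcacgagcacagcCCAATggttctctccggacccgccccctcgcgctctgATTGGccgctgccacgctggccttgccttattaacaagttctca
Slc13a4: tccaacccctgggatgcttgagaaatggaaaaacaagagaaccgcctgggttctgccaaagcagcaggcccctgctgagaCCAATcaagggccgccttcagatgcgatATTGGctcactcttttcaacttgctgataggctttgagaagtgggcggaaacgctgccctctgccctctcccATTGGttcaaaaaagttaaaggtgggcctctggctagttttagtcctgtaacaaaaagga
Aqp1: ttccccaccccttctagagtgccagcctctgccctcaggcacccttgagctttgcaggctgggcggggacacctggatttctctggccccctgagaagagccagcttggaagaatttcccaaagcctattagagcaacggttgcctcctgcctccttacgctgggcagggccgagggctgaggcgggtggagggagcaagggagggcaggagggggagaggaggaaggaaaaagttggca

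CCAAT, the letters of the common NF-Y box, was chosen for display after the sequences were seen. It was found at 2 places in the Msx1 stretch, at 3 in that of Slc13a4 and at 0 in that of Aqp1, while 33.0% of all 32841 promoters of the same length held it at least once on either strand and 9.65% held it at 2 or more places. TAATCC, the letters bound by OTX2-type homeodomains, TAATTG, those bound by MSX-type homeodomains, and the TATA-box letters TATAAA were not in any of the 3 stretches on either strand. Among all promoters, 6.05% held TAATCC, 7.01% TAATTG and 12.1% TATAAA. GC content was 67.1% for Msx1, 50.8% for Slc13a4 and 61.7% for Aqp1, against a median of 52.1% over all promoters. The matches are descriptions of letters and not of bound sites. Ttr, Enpp2, Folr1 and Sostdc1 are not shown.

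The libraries held 19988137 to 26210790 reads, and the listed genes and spike-ins took 97.6% to 97.8% of them. As a check of the labels, Trbc2, which encodes part of the constant region of that receptor chain (chromosome 6, 41546730 to 41548352, GRCm38), was at 0 reads in TCRb-/- replicates 1 and 2, where 0 reads allow a level of up to 0.122 and 0.150 CPM. It had 169 reads in WT replicate 1 and 86 in WT replicate 2. The experiments differed widely across the transcriptome, with 3292 of 13912 genes called by limma at an adjusted p under 0.05. Markers of neighbouring brain regions moved with the experiments, as given further on.

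All 7 genes had the same order of libraries. WT replicate 1 was lowest, TCRb-/- replicate 1 came next, WT replicate 2 was above both, and TCRb-/- replicate 2 was highest. Summed over the 7 genes, the level was 1238 CPM in WT replicate 1, 2050 in TCRb-/- replicate 1, 4054 in WT replicate 2 and 6722 in TCRb-/- replicate 2. The sum was 1.66-fold higher in TCRb-/- than in WT in either experiment, and 3.28-fold higher in experiment 2 than in experiment 1 in either genotype. WT replicate 2 thus lay 1.98-fold above TCRb-/- replicate 1, and the genotypes overlapped in every one of the 7 genes. The 7 genes together took 0.124% of reads in WT replicate 1 and 0.672% in TCRb-/- replicate 2.

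**Figure D1:**
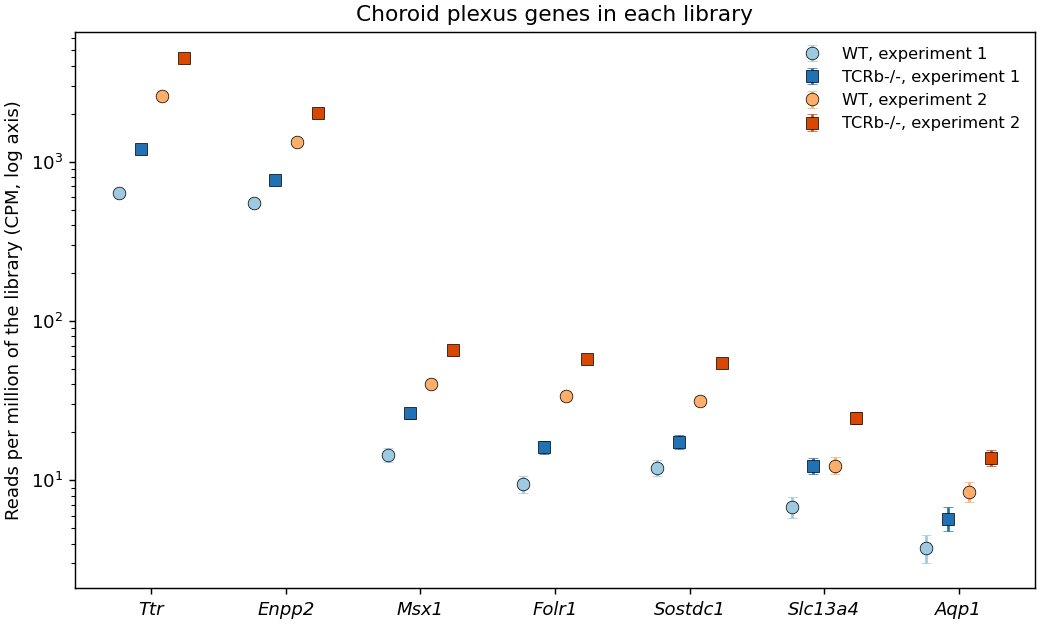
CPM (log axis) of the 7 choroid plexus genes in each of the 4 libraries. Circles are WT and squares TCRb-/-, blue is experiment 1 and orange experiment 2, each point is 1 pool of mice, and bars are exact 95% counting intervals. In every gene WT replicate 1 is lowest and TCRb-/- replicate 2 highest, and WT replicate 2 lies above TCRb-/- replicate 1, narrowly for Slc13a4 (12.34 against 12.28 CPM).

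Among the secreted proteins, Ttr encodes transthyretin, which carries thyroid hormone and, with retinol-binding protein, retinol (chromosome 18, 20665280 to 20674321, plus strand, GRCm38). In experiment 1 Ttr stood at 1204 CPM in TCRb-/- and 638 in WT, and in experiment 2 at 4478 in TCRb-/- and 2591 in WT. Both libraries of experiment 2 were above both of experiment 1, and within each experiment the TCRb-/- library was the higher. The TCRb-/- value was 1.89-fold the WT value in experiment 1 (95% counting interval 1.85 to 1.92) and 1.73-fold in experiment 2 (1.71 to 1.75). The TCRb-/- mean was 2841 ± 2315 CPM (SD, n = 2) and the WT mean 1615 ± 1381 CPM (SD, n = 2), so the spread within a genotype exceeded the difference between them. Between experiments Ttr rose 3.72-fold in TCRb-/- and 4.06-fold in WT, and limma gave a log2 difference of 1.96 (SE 0.31, adjusted p = 0.00800).

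Enpp2 encodes autotaxin, a secreted enzyme that makes the signalling lipid lysophosphatidic acid (chromosome 15, 54838901 to 54952892, minus strand). In experiment 1 it stood at 769 CPM in TCRb-/- and 554 in WT, and in experiment 2 at 2028 and 1336. The order was that of Ttr, with a smaller step in each direction. The fold of TCRb-/- over WT was 1.39 (1.36 to 1.42) in experiment 1 and 1.52 (1.50 to 1.54) in experiment 2. Enpp2 rose between experiments by 1.33 on the log2 scale (SE 0.20, adjusted p = 0.00714 in limma), 2.64-fold in TCRb-/- and 2.41-fold in WT. Exons of the antisense gene Gm26684 overlap those of Enpp2 by 345 bases, and the strand setting of the counting is not given, so reads of that stretch cannot be told apart.

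Sostdc1 encodes a secreted antagonist of BMP and Wnt signals (chromosome 12, 36314139 to 36318452, plus strand). Its level in TCRb-/- was 17.4 CPM in experiment 1 and 54.5 in experiment 2, and in WT it was 11.9 and 31.6, from 312 to 1090 reads. The experiments did not overlap and the genotypes did. TCRb-/- was 1.46-fold WT (1.26 to 1.70) in experiment 1 and 1.73-fold (1.57 to 1.90) in experiment 2. The difference between experiments was 1.46 on the log2 scale (SE 0.25, adjusted p = 0.00907 in limma).

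Folr1 encodes folate receptor alpha, through which the epithelium passes folate from blood to cerebrospinal fluid (chromosome 7, 101858331 to 101870788, minus strand). Its TCRb-/- libraries held 16.1 CPM in experiment 1 and 57.5 in experiment 2, and its WT libraries 9.42 and 33.9. Of the 7 genes it had the most even ratios: TCRb-/- was 1.70-fold WT in both experiments (1.45 to 2.01 and 1.55 to 1.86), and experiment 2 was 3.58-fold experiment 1 in TCRb-/- and 3.60-fold in WT. The limma difference between experiments was 1.76 (SE 0.28, adjusted p = 0.00762).

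Slc13a4 encodes a sodium-coupled sulfate transporter (chromosome 6, 35267957 to 35308131, minus strand). In TCRb-/- it went from 12.3 CPM in experiment 1 to 24.5 in experiment 2, and in WT from 6.75 to 12.3. WT replicate 2 and TCRb-/- replicate 1 were almost equal, so the experiments were barely separate. TCRb-/- was 1.82-fold WT in experiment 1 (1.51 to 2.20) and 1.99-fold in experiment 2 (1.71 to 2.31), and its log2 genotype difference, 0.86 as the mean of both experiments, was close to that of Ttr (0.85). Between experiments the difference of 0.86 (SE 0.33) did not pass limma's threshold (adjusted p = 0.0935). It passed with genotype as a second term (SE 0.12, adjusted p = 0.00483 in limma). Neither fit has an error independent of the selection: the first includes the genotype difference, the second its change between experiments.

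Aqp1 encodes a water channel of the epithelium's apical membrane (chromosome 6, 55336432 to 55348555, plus strand) and was the least abundant of the 7. Experiment 1 gave 5.74 CPM in TCRb-/- and 3.74 in WT, and experiment 2 gave 13.8 and 8.41, from 98 to 276 reads. Its order of libraries was again the common one. The counting intervals were the widest, with 1.53-fold (1.18 to 2.01) in experiment 1 and 1.64-fold (1.36 to 1.99) in experiment 2. The log2 difference between experiments was 1.06 (SE 0.25, adjusted p = 0.0221 in limma). Slc13a4 and Aqp1 lie on the chromosome of the disrupted locus, 6.24 and 13.79 Mb from Trbc2, and the other 5 genes on other chromosomes.

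Msx1 encodes a homeodomain transcription factor of the dorsal midline and a target of BMP signals (chromosome 5, 37820485 to 37824583, minus strand). The TCRb-/- libraries stood at 26.2 CPM (experiment 1) and 65.7 (experiment 2), and the WT libraries at 14.4 and 40.3. As in the others, both libraries of experiment 2 were above both of experiment 1. The fold of TCRb-/- over WT was 1.82 (1.60 to 2.07) in experiment 1 and 1.63 (1.50 to 1.78) in experiment 2. Msx1 rose by 1.36 between experiments on the log2 scale (SE 0.29, adjusted p = 0.0158 in limma).

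The selected direction, higher in TCRb-/- in both experiments, was shared by 3760 of 13912 genes (27.0%), and nothing is read from the count of 7 of 7 that the selection fixed. The median log2 genotype difference of the 7 genes was 0.71 in experiment 1 and 0.74 in experiment 2, against 0.00 for all genes as the mean of both experiments. Single genes spread around that with an SD of 0.20 in experiment 1 and 0.23 in experiment 2. When all genes were ranked by the smaller of their genotype differences, Ttr stood at place 3, Slc13a4 at 4, Folr1 at 5 and Msx1 at 7. Sostdc1, Aqp1 and Enpp2 stood at 38, 40 and 49. The medians of the 7 and these places come from the values used in the selection, so nothing is read from them. The lowest of the 7 in this ranking were Enpp2 (log2 differences of 0.47 and 0.60 in experiments 1 and 2) and Aqp1 (0.51 and 0.65). They are not the edge of the rule. Of the 54 tested genes on the choroid plexus lists below, 43 were also higher in TCRb-/- in both experiments. Among the listed genes that were not, Atp1b1 (0.02 and -0.03) and Slc12a2 (-0.04 and 0.18) came closest.

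Across all genes, limma with genotype alone gave 0 calls among 13912 genes, 43 of which had an unadjusted p under 0.05. With the experiment as a replicate block it called 2 (0.0144%), Trbc2 and Ttr. Ttr was selected on this contrast, so nothing is read from its call. In the fit with genotype alone, the count of 0 became 47 without TCRb-/- replicate 1 and 1 without TCRb-/- replicate 2. Leaving out TCRb-/- replicate 2 or WT replicate 1, which unbalances the experiments, left 3 of the 7 genotype differences above 0 in each case, with values of -0.16 to 0.39 and -0.16 to 0.46. The change of the genotype difference from experiment 1 to experiment 2 ran from -0.13 for Msx1 and Ttr to 0.26 for Sostdc1. With 1 library per genotype and experiment it leaves no residual degrees of freedom and was not tested. The counting intervals of the fold in the 2 experiments overlapped for 5 genes and did not for Ttr, whose fold was larger in experiment 1, and Enpp2, whose fold was larger in experiment 2.

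The contrast between experiments, which the selection did not use, gave log2 differences of 0.86 to 1.96 for the 7 genes. Their genotype differences, as the mean of both experiments, were 0.54 to 0.86, and for Slc13a4 both differences rounded to 0.86. Limma called 6 of the 7 higher in experiment 2, all but Slc13a4, against 8.95% of all genes tested. The spread in this fit includes the genotype difference, on which the 7 were selected. This count is therefore not independent of the selection, and nothing is read from it. With genotype as a second term limma called 7 of 7, against 9.29%. The residual of that fit is the change of the genotype difference between experiments, and the selection asked for the same sign in both. That count is therefore not independent of the selection, and nothing is read from it. Both libraries of experiment 2 lay above both of experiment 1 for 7 of 7 genes, which held for 30.1% of all genes. The median difference of the 7 was 1.36 against -0.03 for all genes. When genes were ranked by the smaller of the differences in the 2 genotypes, Ttr stood at place 3, Folr1 at 4, Sostdc1 at 12, Msx1 at 16, Enpp2 at 17, Aqp1 at 42 and Slc13a4 at 94. The calls depended on how the spread was estimated: without the mean-variance trend limma called 0 of the 7 (adjusted p 0.0520 to 0.187, and 6 of 7 at an unadjusted p under 0.05), and without WT replicate 1 it called 4, losing Msx1 (0.0565) and Aqp1 (0.105).

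**Figure D2:**
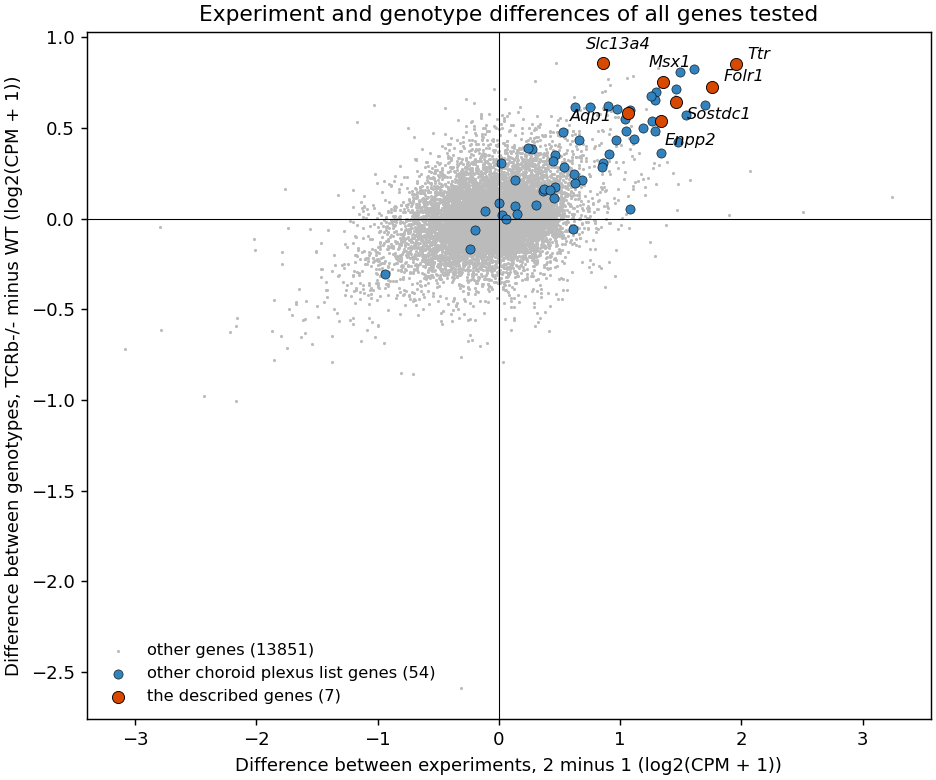
Each point is 1 of 13912 genes, with the log2 difference between experiments (2 minus 1) on the x axis and the mean log2 difference between genotypes (TCRb-/- minus WT) on the y axis; the 7 choroid plexus genes and the genes of the choroid plexus lists are coloured. The 7 genes lie at 0.86 to 1.96 on the x axis and 0.54 to 0.86 on the y axis, and the single point at -2.59 on the y axis is Trbc2.

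Compared per length, Ttr was far above the others. Mean values were 1878 CPM per kb of exon for Ttr, 203 for Enpp2, 16.2 for Sostdc1, 12.7 for Folr1, 11.8 for Msx1, 3.09 for Slc13a4 and 3.02 for Aqp1. The places of Folr1 and Msx1 were not settled: Msx1 was above Folr1 in both libraries of experiment 1 (8.47 against 6.99 and 4.66 against 4.10 CPM per kb) and below it in both of experiment 2 (21.2 against 25.0 and 13.01 against 14.76). Aqp1 was below Slc13a4 in 3 libraries and above it in WT replicate 2 (3.20 against 2.73).

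The genes did not keep the same proportions to each other. The share of Ttr in the summed CPM of the 7 was 51.5% in WT replicate 1, 58.7% in TCRb-/- replicate 1, 63.9% in WT replicate 2 and 66.6% in TCRb-/- replicate 2. Enpp2 stood at 86.8% of the Ttr level in WT replicate 1 and at 63.9%, 51.6% and 45.3% in the others in that same order. Its share of Ttr thus fell in the order in which the level of both genes rose.

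Folr1 stayed closest to a constant ratio, at 1.48%, 1.33%, 1.31% and 1.28% of Ttr in the same order of libraries. Sostdc1 went from 1.87% and 1.45% in experiment 1 to 1.22% in both libraries of experiment 2, and Msx1 from 2.26% and 2.18% to 1.56% and 1.47%. Slc13a4 was at 1.06% and 1.02% of Ttr in the WT and TCRb-/- libraries of experiment 1 and at 0.476% and 0.547% in those of experiment 2. Aqp1 was at 0.586% and 0.476%, then 0.324% and 0.308%. These ratios were not tested.

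**Figure D3:**
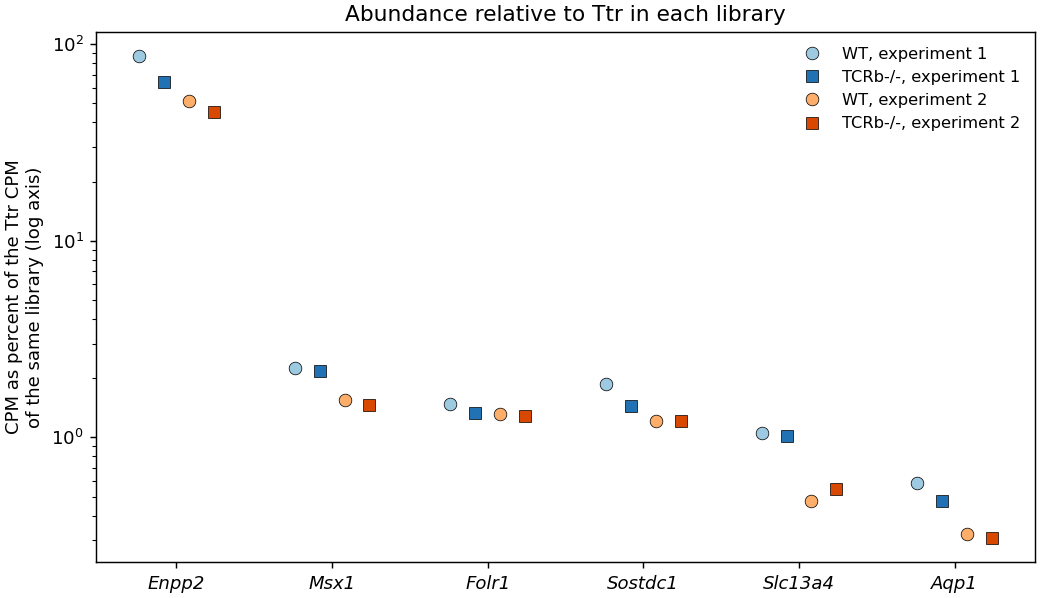
CPM of the other 6 choroid plexus genes as a percentage of the CPM of Ttr (log axis) in each of the 4 libraries, which are ordered by their Ttr level (circles WT, squares TCRb-/-). Enpp2 goes from 86.8% to 45.3% of Ttr from the lowest to the highest library, while Folr1 stays between 1.28% and 1.48%.

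Other genes of the choroid plexus were taken as 4 lists with 63 genes in all, of which 54 were tested. These lists and those further on were chosen with earlier results of these data known. Their counts beside the shares of all genes are descriptions only. Limma called 34 of the 54 higher in experiment 2, 1 lower and 19 neither, beside 8.95% and 14.7% of all genes called higher and lower. With genotype as a second term 39 were called higher. Their median difference between experiments was 0.64, and their median genotype difference was 0.35. In TCRb-/- 43 were higher in both experiments, beside 27.0% of all genes, 2 were lower in both and 9 went in opposite directions. Without TCRb-/- replicate 2 or WT replicate 1 that median genotype difference became -0.04 or -0.03. These genes mark the tissue by which the 7 were chosen, so their genotype values are no independent evidence. Without the mean-variance trend the count of 34 became 3, and without WT replicate 1 it became 14.

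Of the 16 tested genes for secreted and surface proteins, 14 were called higher in experiment 2 and 2 were not called. Kl, which encodes the hormone-like protein klotho, went from 23.3 to 54.2 CPM in TCRb-/- and from 16.1 to 38.3 in WT (difference between experiments 1.19, adjusted p = 0.00860 in limma). Igfbp2, a binding protein of insulin-like growth factors, from 53.0 to 125 CPM in TCRb-/- and from 30.6 to 80.7 in WT (1.29, adjusted p = 0.0141). The prolactin receptor gene Prlr (0.97, adjusted p = 0.0111) and Cab39l (0.37, adjusted p = 0.0350) were also higher. All 16 were higher in TCRb-/- in both experiments.

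The 15 genes of ion and acid-base transport were mixed, with 7 higher in experiment 2, 1 lower and 7 not called. The 4 most abundant included the carbonic anhydrase gene Car2, the bicarbonate transporter gene Slc4a10 and Atp1b1, a subunit of the sodium pump, none of which was called (adjusted p 0.120, 0.187 and 0.540 in limma). Atp1b2, another subunit, rose by 0.36 (adjusted p = 0.0180). Neurons and glia also express these 4.

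Of the 13 tested carriers for nutrients, metals and drugs, 5 were called higher and 8 were not called. Slc29a4, a monoamine transporter gene, rose by 0.86 (adjusted p = 0.00791 in limma), the copper transporter gene Slc31a1 by 0.63 (adjusted p = 0.00860) and Slc5a6, which takes up biotin and pantothenate, by 0.30 (adjusted p = 0.0383). The vitamin C transporter gene Slc23a2 differed by -0.11 (adjusted p = 0.325). Of the 10 tested transcription factors and junction genes, 8 were called higher and 2 were not called. Otx2, a homeodomain factor needed for the choroid plexus, went from 12.6 to 22.9 CPM in TCRb-/- and from 9.88 to 19.1 in WT (0.85, adjusted p = 0.00986). The cation channel gene Trpm3 (0.90, adjusted p = 0.0344), the protease inhibitor gene Spint2 (0.68, adjusted p = 0.00684) and the desmosome gene Perp (0.62, adjusted p = 0.0208) rose as well.

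Genes that act with the 7 in other steps of their pathways were taken as 6 further lists, whose counts stand beside the shares of 8.95% called higher and 14.7% called lower among all genes. Of 10 tested genes that handle the ligands of transthyretin, 2 were called higher in experiment 2 and 5 lower, with a median difference of -0.25. The thyroid hormone receptor genes Thra and Thrb fell by 0.32 (adjusted p = 0.0151 in limma) and 0.71 (adjusted p = 0.00535), and Crym, a thyroid hormone binding protein of the cytosol, fell by 1.32 (adjusted p = 0.0233). The 2 called higher, named after their values were seen, were Stra6, a retinol uptake receptor, and Slco1c1, a thyroid hormone transporter.

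Of 7 tested genes around lysophosphatidic acid, the product of autotaxin, 2 were called higher and 0 lower, also at an unadjusted p under 0.05. These were the lipid phosphatase genes Plpp1 (0.35, adjusted p = 0.0182 in limma) and Plpp2 (0.50, adjusted p = 0.0171). The receptor gene Lpar1 (-0.16, adjusted p = 0.268) and the phosphatase gene Plpp3 (-0.04, adjusted p = 0.721) did not pass.

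Of 9 tested folate genes, limma called 0 in either direction (1 higher and 1 lower at an unadjusted p under 0.05). The proton-coupled folate transporter gene Slc46a1, which works beside folate receptor alpha, differed by 0.34 (adjusted p = 0.103 in limma, and 0.0475 with genotype as a second term). The reduced folate carrier gene Slc19a1 differed by 0.15 (adjusted p = 0.524), and the folate enzyme genes Shmt2 and Mthfd1 by 0.05 and 0.08 (adjusted p 0.762 and 0.521).

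Of 23 tested genes of BMP and Wnt signalling, 0 were called higher (1 at an unadjusted p under 0.05) and 2 lower (4 unadjusted). Smad4, the shared SMAD, fell by 0.38 (adjusted p = 0.0126 in limma) and the receptor gene Acvr1, named after its values were seen, by 0.64 (adjusted p = 0.0372). The BMP target genes Id2, Id3 and Id4 did not pass (-0.0036, 0.08 and -0.11, adjusted p 0.978, 0.549 and 0.224). Of 5 tested sulfate genes, 1 was called: the sulfate transporter gene Slc26a2 fell by 0.62 (adjusted p = 0.0359). Slc26a11 (0.32) and the sulfate-activating enzyme genes Papss1 (-0.02) and Papss2 (-0.44) did not pass (adjusted p 0.226, 0.854 and 0.0502). Of the other aquaporins 3 were listed, with 0 calls and 1 higher at an unadjusted p under 0.05. The water channel genes Aqp4, Aqp9 and Aqp11 did not pass (adjusted p 0.762, 0.463 and 0.0852).

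Markers of other cells and regions moved with the libraries as well. Ependymal cells line the ventricles beside the choroid plexus, and their 12 listed markers summed to 198 CPM in WT replicate 1, 256 in TCRb-/- replicate 1, 288 in WT replicate 2 and 314 in TCRb-/- replicate 2. That is the order of the 7 genes with a narrower range, 1.58-fold from lowest to highest against 5.43-fold for the summed 7. Of 11 tested ependymal markers, limma called 5 higher in experiment 2, beside 8.95% of all genes, and 9 were higher in TCRb-/- in both experiments, beside 27.0%.

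Thalamic markers (8 of 8 listed) summed to 647 CPM in experiment 1 and 1086 in experiment 2 in WT, and to 671 and 1557 in TCRb-/-, and 5 were called higher in experiment 2. Striatal markers (10 of 10 listed) went the other way, from 3927 to 2382 CPM in WT and from 4382 to 955 CPM in TCRb-/-, with 10 of 10 called lower. Cortical and hippocampal markers (9 of 9 listed) went from 330 to 175 CPM in WT and from 303 to 141 CPM in TCRb-/-, with 5 called lower. Bcl11b alone, named after its values were seen, held 176 and 93.4 CPM of the WT sums and 185 and 48.2 CPM of the TCRb-/- sums. Rasgrf2 and Rorb, also named after their values were seen, rose in TCRb-/- and fell in WT, and neither was called. The summed septal markers (9 of 10 listed) lay between 375 and 447 CPM in all 4 libraries, with 3 of the 9 tested called higher. Beside these counts and that of the macrophage markers below, limma called 8.95% of all genes higher and 14.7% lower in experiment 2.

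Among markers of the other cells of the choroid plexus stroma and meninges, the 10 endothelial markers summed to 16.8 to 23.1 CPM and the 10 fibroblast markers to 41.1 to 54.0 CPM, with 0 called in either list by limma with or without the block (at an unadjusted p under 0.05, 0 endothelial markers and 2 fibroblast markers, both lower in experiment 2). In both lists the lowest sum was that of WT replicate 2. The 4 listed macrophage markers of 7 summed to 11.5 and 7.74 CPM in WT and 12.2 and 3.95 CPM in TCRb-/-, with 1 of 3 tested markers called lower in experiment 2 and 2 with the block. These were Cd163 and, with the block alone, Clec12a, both named after their values were seen. No listed marker of these 8 lists was at 0 reads in any library. The part of ependymal, thalamic, striatal and cortical tissue in the differences of the 7 genes was not tested.

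**Figure D4:**
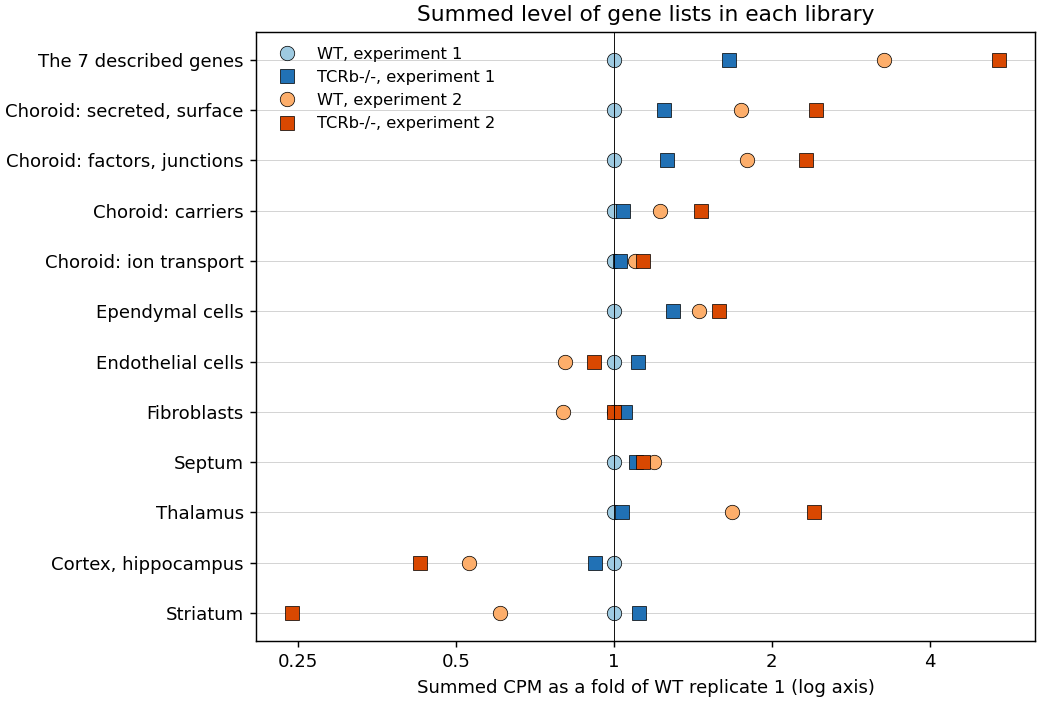
Summed CPM of the 7 genes, of the choroid plexus lists and of marker lists in each of the 4 libraries as a fold of WT replicate 1 (log axis). The 7 genes reach 5.43-fold in TCRb-/- replicate 2 and ependymal markers 1.58-fold, while striatal markers go down to 0.243-fold.

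Outside the 7 genes, likeness was measured as the root mean square difference, over the 4 libraries, between a gene's centred log2(CPM + 1) and the mean of the 7. It was smallest for Col8a1 (0.0410), a collagen chain, Steap1 (0.0432), a metalloreductase family member, Pcolce (0.0649), an enhancer of procollagen processing, Igfbp2 (0.0764) and Wdr86 (0.0775). Wfdc2, Tmem72, Trpv4, Sult1c2 and Kcne2 followed (0.109 to 0.125). Of these 10 genes, 6 were on the choroid plexus lists. Col8a1 went from 8.54 CPM in experiment 1 to 26.8 in experiment 2 in TCRb-/-, and from 5.34 to 15.3 in WT. The 7 genes themselves ranged from 0.0588 for Msx1 to 0.292 for Ttr, whose swings were wider than the mean. Each of the 7 is part of that mean, so their values are not comparable with those of other genes. The median was 0.420 over the 54 choroid plexus list genes and 0.802 over all genes.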

How the data were processed

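RNA of 4 pools of septal tissue, 2 TCRb-/- and 2 WT, was sequenced from SMARTer ultra-low-input libraries on a HiSeq instrument, per the labels' protocols. Groups and experiments were taken from the labels. The submitters' processing notes name HISAT2 2.1.0, SAMtools 1.3, HTSeq 0.9.1, R 4.0.5, limma 3.46.0 and the build mm10, without their roles. Strand use in counting is not given in the sources used here.

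The deposited values are log2 values per gene, per the file headers and the values, which the authors made as log2 CPM after adding 0.5 to each count and 1 to each library's total. The total that was solved from the values turned 100% of them into whole reads, to within 0.001 reads. Each library listed 15426 entries, 17 of them spike-in RNAs, which were left out. Recovered reads were expressed as CPM and put on the log2(CPM + 1) scale, on which changes of low genes are understated. Log2 differences are on that scale, and folds are ratios of CPM. Genes whose mean CPM was 1 or more were tested with limma 3.58.1 in R 4.3.3 (moderated with a mean-variance trend, two-sided, Benjamini-Hochberg over 13912 genes, threshold 0.05), by experiment and by genotype. The fit was run on simulated data in which the libraries of an experiment differed by noise only, with no genotype difference. That is not the design here, so nothing about the calls in these data is read from it. Intervals are exact 95% intervals of counts or of the ratio of counts. They and the limit of 3 reads for a count of 0 cover counting error only, since PCR copies of reads, with no molecular identifiers, do not count independent molecules. Per-length values use the union of exons in GENCODE M21 (GRCm38). Python 3.11.15 with pandas 2.3.3, numpy 2.4.6, scipy 1.17.1 and matplotlib 3.10.9 did the rest.

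The 7 genes and all gene lists were chosen with earlier results of these data known. The genes named are the 7, Trbc2, the 4 genes of highest mean CPM in each of the 10 lists of choroid plexus and pathway genes, and the 10 genes most like the mean of the 7; others are said to be named after their values were seen. Not every gene under that rule is reported here. The 8 marker lists are given by counts, sums and medians.

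In the labels the experiment and the replicate number coincide, which pairs the libraries. Across genes, deviations from the genotype means had a correlation of 0.719 within such pairs. The fit with the replicate block was an alternative, as were pseudocounts of 0.1 and 5 CPM, the deposited log2 values, a filter at 10 CPM or none, quantile normalization, median-of-ratios scaling, no trend and leaving out each library.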

Additional observations from a re-analysis of the deposited data

Results flagged for a closer look

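For 6 gene lists the median log2 difference between TCRb-/- and WT had opposite signs in the 2 experiments. These differences between experiments were not tested, since each experiment holds 1 library per genotype. The lysophosphatidic acid genes around autotaxin had medians of 0.0576 in experiment 1 and -0.0733 in experiment 2, the BMP and Wnt genes around Sostdc1 and Msx1 had 0.0114 and -0.0300, and the sulfate genes around Slc13a4 had 0.0189 and -0.0384. All of these were small beside the SD of the genotype differences of single genes, 0.20 in experiment 1 and 0.23 in experiment 2. Nothing is read from their change of sign. Fibroblast markers had -0.0465 and 0.254, thalamic markers -0.0875 and 0.694, and striatal markers 0.167 and -1.26. The 7 choroid plexus genes were selected for the same sign in both experiments and had medians of 0.71 and 0.74.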

How the results depend on the processing

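The genotype comparison called 0 genes in all settings except 2 with the replicate block, and 0 to 47 when single libraries were left out. The experiment comparison called 3292 genes, 3437 with the replicate block, 629 without the mean-variance trend, and 1406 to 3390 when single libraries were left out. Of the choroid plexus list genes, 34 were called higher in experiment 2, 3 without the trend, and 14 to 41 when single libraries were left out. Both pseudocounts, the deposited log2 values, both filters and both scalings kept each of these counts within 1.5 times.

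All 7 genes were higher in experiment 2 in every setting, and calls among them numbered 6 of 7 under both pseudocounts, the deposited values, no filter and both scalings, and 5 of 6 with a filter at 10 CPM, which drops Aqp1. Without the trend 0 of 7 were called, with the replicate block 7, without WT replicate 1 4, and without WT replicate 2 7. For the 7 genes the error of the fit by experiment is not independent of the selection, with or without the replicate block, as given above. The genotype differences stayed above 0 in all settings that kept the experiments balanced. The selection asked for values above 0 in both experiments, so nothing is read from that. With single libraries left out they ran from -0.16 to 1.86 for Ttr, -0.16 to 1.24 for Enpp2, -0.16 to 1.62 for Folr1, -0.16 to 1.44 for Sostdc1 and -0.0378 to 0.712 for the median of the choroid plexus lists. The negative values came without TCRb-/- replicate 2 or WT replicate 1, and such a fit compares genotypes across experiments by its construction. A lone library is assumed there to vary like the others. Depth limits Aqp1 most, at 98 to 276 reads.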
